A study of Mus musculus with 6 samples.

Results

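Genes of the Wnt pathway that signalling itself switches on, and whose products mostly restrain the pathway or sit at the cell surface, were followed in differentiating mouse embryonic stem cells with and without induced Lef1. The 10 genes were taken by name: Axin2, Nkd1, Nkd2, Dkk1, Dkk4, Notum, Rnf43, Znrf3, Lgr5 and Tnfrsf19. Each was found in exactly 1 row of the authors' deposited table, 10 of 36699 rows in all. All 10 rows were marked as tested, and 0 of them join several genes. The cells were of the line A2Lox.cre and carried a Flag-tagged Lef1 transgene that doxycycline (Dox) switches on. They had been kept on primary embryonic fibroblasts of the FVB mouse strain, were stripped of these, and were grown in suspension as embryoid bodies, the floating aggregates in which embryonic stem cells begin to differentiate. The group called plus_Dox (3 libraries) received Dox from day 2 for 24 h and the group called minus_Dox (3 libraries) received none. Both carried the transgene and both were harvested on day 3. Neither group received Dox without the transgene, so an effect of Dox itself and an effect of Lef1 cannot be told apart here, and the labels do not say whether the line is 1 clone or whether the libraries came from separate cultures.

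When a Wnt ligand binds a Frizzled receptor and its co-receptor Lrp5 or Lrp6, the complex that destroys beta-catenin is held back, and beta-catenin enters the nucleus and joins a Tcf/Lef factor such as Lef1 on its target genes. Among these targets are genes that close a negative feedback loop. Axin2 is a scaffold of the destruction complex, Nkd1 and Nkd2 bind Dishevelled, Dkk1 and Dkk4 are secreted blockers of Lrp5 and Lrp6, and Notum is a secreted enzyme that removes the lipid from Wnt ligands. Rnf43 and Znrf3 are ubiquitin ligases of the cell membrane that clear Frizzled from the surface, Lgr5 is a receptor for the R-spondins that counter these ligases, and Tnfrsf19 (also called Troy) is a receptor of the TNF receptor family. In the early embryo several of these genes are expressed at the primitive streak, where Wnt signalling starts mesoderm formation.

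Promoter sequence was looked up in RefSeq (build GRCm38.p6) because these genes were chosen as targets of a DNA-binding factor. The table of promoters held 6 of the 10 genes, Axin2, Nkd1, Nkd2, Dkk1, Rnf43 and Tnfrsf19. The 250 bases before each listed start were searched on both strands for the core sequence that Tcf/Lef factors are known to bind, spelled here as CTTTG followed by any pair of the bases A and T (7 bases, 4 spellings). Over all 32851 promoter windows of this length, 14.8% held at least 1 match and 1.43% held 2 or more. Counted per gene, over all its listed starts, 16.8% of 27025 genes held a match. Among the 6 genes, 2 held a match: Dkk1 with 2 matches, and Tnfrsf19 with 1 match before the second of its 2 listed starts. The first 2 windows below are shown because they hold the matches, in capitals. The next, of Axin2, is shown because that gene reached the highest level of the 10, and the last 2 because Nkd1 and Nkd2 are paralogues whose values differed. These 3 windows hold no match, which says only that the searched letters are not in them.
Dkk1, chr19:30549497-30549746, minus strand: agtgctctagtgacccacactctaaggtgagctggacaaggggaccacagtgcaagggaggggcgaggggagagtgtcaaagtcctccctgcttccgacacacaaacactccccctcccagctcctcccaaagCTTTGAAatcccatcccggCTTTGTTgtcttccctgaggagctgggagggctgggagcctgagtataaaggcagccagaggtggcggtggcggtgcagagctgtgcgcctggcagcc
Tnfrsf19, second start, chr14:61037988-61038237, minus strand: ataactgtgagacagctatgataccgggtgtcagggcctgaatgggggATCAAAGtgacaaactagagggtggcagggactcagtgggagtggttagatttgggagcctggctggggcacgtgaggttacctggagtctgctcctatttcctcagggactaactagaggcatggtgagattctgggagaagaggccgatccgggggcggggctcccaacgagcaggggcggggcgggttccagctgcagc
Axin2, chr11:108920099-108920348, plus strand: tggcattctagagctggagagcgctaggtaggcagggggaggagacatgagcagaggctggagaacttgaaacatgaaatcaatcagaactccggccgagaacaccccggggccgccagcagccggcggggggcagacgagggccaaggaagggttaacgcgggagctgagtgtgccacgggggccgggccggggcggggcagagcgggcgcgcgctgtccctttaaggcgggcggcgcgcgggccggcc
Nkd1, chr8:88527383-88527632, plus strand: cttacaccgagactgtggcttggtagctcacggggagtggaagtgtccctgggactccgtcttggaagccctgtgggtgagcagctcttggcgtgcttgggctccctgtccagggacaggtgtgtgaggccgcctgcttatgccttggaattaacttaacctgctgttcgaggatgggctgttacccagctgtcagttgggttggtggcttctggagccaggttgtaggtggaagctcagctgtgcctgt
Nkd2, chr13:73847632-73847881, minus strand: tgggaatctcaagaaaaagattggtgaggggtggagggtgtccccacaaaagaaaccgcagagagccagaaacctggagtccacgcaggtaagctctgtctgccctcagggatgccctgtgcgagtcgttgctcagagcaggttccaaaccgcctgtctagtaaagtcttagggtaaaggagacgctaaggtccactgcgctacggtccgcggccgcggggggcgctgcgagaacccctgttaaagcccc
In Dkk1 the match CTTTGAA lay 117 to 111 bases before the start of the gene, and the other match, CTTTGTT, lay 98 to 92 bases before it, both on the strand of the gene. In Tnfrsf19 the match lay 202 to 196 bases before the second start, where CTTTGAT reads on the opposite strand. A match of letters is a description of the sequence and was not tested as a binding site.

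Expression of the 10 genes was low in both groups. Levels are given in FPKM, sequenced fragments scaled to transcript length and library size, which allows genes to be compared per length. The table holds 1 value per gene and group, computed by the authors from the 3 libraries, so a value for each library, its spread and the depth of the libraries are unknown. Without Dox, the authors' deposited table gives the highest level to Znrf3 (1.89 FPKM), followed by Nkd2 (1.46 FPKM), Dkk1 (1.32 FPKM) and Axin2 (1.11 FPKM), and 4 of the 10 reached 1 FPKM. With Dox, the order in the authors' deposited table became Axin2 (5.32 FPKM), Tnfrsf19 (3.66 FPKM), Dkk1 (3.05 FPKM) and Znrf3 (1.98 FPKM), and 6 reached 1 FPKM. Axin2 thus went from the fourth place to the first and Tnfrsf19 from the seventh to the second, while Lgr5 went from the ninth to the last. Because the spread of a level is not known, neighbours in this order cannot be called different. The levels summed over the 10 genes were 7.74 FPKM without Dox and 18.9 FPKM with it, 2.45 times as much, and Axin2, Tnfrsf19 and Dkk1 made up 37.8% of the first sum and 63.6% of the second. The median over all tested rows was 3.45 FPKM without Dox and 3.67 FPKM with it, and Axin2 with Dox was the only value of the 10 genes above the median of its group.

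**Figure D1:**
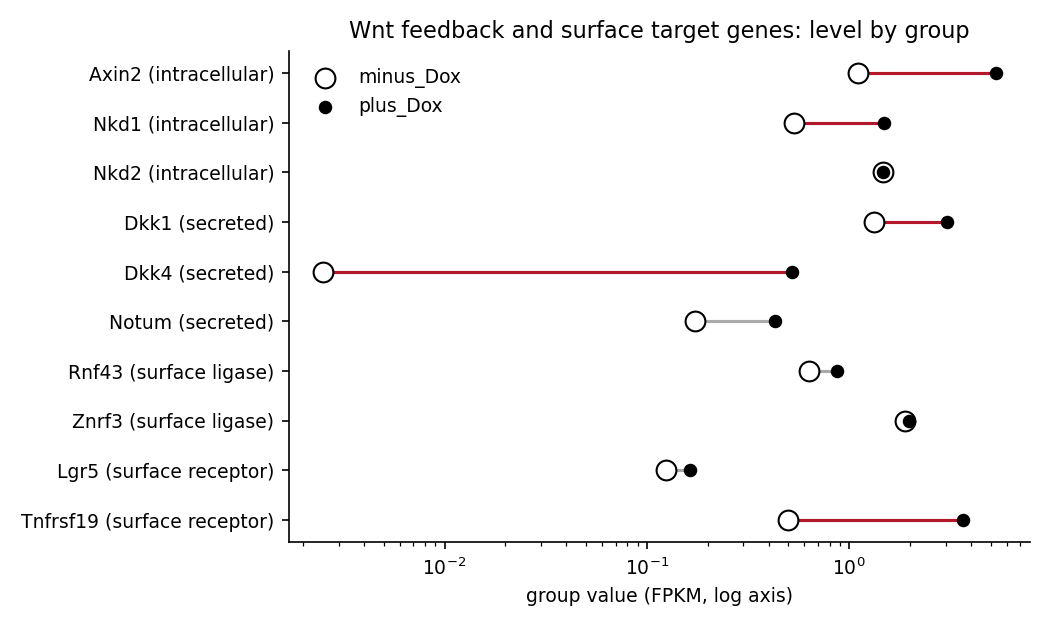
Level of each of the 10 genes in minus_Dox (open circles) and plus_Dox (filled circles) in FPKM on a log axis, 1 value per group from the authors' deposited table, with red lines for genes that passed a q-value of 0.05 and grey lines for those that did not. Axin2 ends highest at 5.32 FPKM, and the circles of Nkd2 and of Znrf3 nearly coincide.

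Of the 10 genes, 5 rose with Dox (Tnfrsf19, Axin2, Nkd1, Dkk1 and Dkk4), 0 fell and 5 did not pass (Notum, Rnf43, Lgr5, Znrf3 and Nkd2) at a q-value of 0.05 in the authors' own test. Of all 18114 tested rows, 12.2% passed by the same rule, 8.98% as rises and 3.22% as falls. At an unadjusted p under 0.05 the authors' test gives 6 of the 10 genes as higher, Notum being added, and 0 as lower. Among the 10977 tested rows whose higher group lay between 0.1 and 10 FPKM, the range in which all 10 genes fall, 4.52% rose. The median log2 fold of the 10 genes was 1.26, against 0.20 over all tested rows and 0.15 over the rows of that range. Since the genes were named with earlier results in view, these shares describe the list and are no test of it. The standard error (SE) of a log2 fold was derived from the size of the authors' statistic, and 95% intervals are built from it. How the authors' test estimated the spread between libraries cannot be seen, so the SE of a gene need not reflect how that gene varied in these 6 libraries. These are also bulk libraries, in which more cells that express a gene and more RNA per cell cannot be told apart.

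Lef1 itself, the gene induced, was read first as a check of the labels. The authors' deposited table lists it at 7.56 FPKM in minus_Dox and 51.0 FPKM in plus_Dox, a log2 fold of 2.75 (SE 0.19). Whether its row counts transcripts of the transgene, of the endogenous gene or of both is not described. The direction of Lef1 is that of the labels.

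Among the intracellular inhibitors, 2 of 3 rose. Axin2 was listed in the authors' deposited table at 1.11 FPKM without Dox and 5.32 FPKM with it. It rose 4.80-fold, and the 95% interval of the fold was 3.12 to 7.41 (log2 fold 2.26, SE 0.32, authors' q = 4.11e-10). The row spans positions 108781662 to 108812097 of chromosome 11, on mm9 as all positions of rows here (the submitters' processing notes name this build). Its implied SE was larger than that of 67.1% of the 2024 rows of similar level, and the authors' statistic was -7.10, negative where plus_Dox is higher. Nkd1 stood at 0.534 FPKM and 1.48 FPKM in the authors' deposited table. It rose 2.77-fold, with an interval from 2.02 to 3.81 (log2 fold 1.47, SE 0.23, authors' q = 7.05e-08). Its row spans positions 91045242 to 91118786 of chromosome 8. Nkd2, the paralogue of Nkd1, was at 1.46 FPKM in both groups of the authors' deposited table (chromosome 13, 73955981 to 73985079). Its log2 fold was -0.0016 with an SE of 0.27 (q = 0.999956 in the authors' test), and the 95% interval of the fold ran from 0.69 to 1.44. By these values Nkd1 was the lower of the pair without Dox and near Nkd2 with it, a comparison of levels that was not tested.

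Of the secreted inhibitors, both Dkk genes rose and Notum did not pass. The authors' deposited table gives Dkk1 at 1.32 FPKM without Dox and 3.05 FPKM with it (chromosome 19, 30620352 to 30624155). The rise was 2.31-fold, and its interval was 1.70 to 3.13 (log2 fold 1.21, SE 0.22, authors' q = 7.09e-06). Dkk4 is listed in the authors' deposited table at 0.00249 FPKM without Dox, close to 0, and at 0.524 FPKM with it (chromosome 8, 23734514 to 23738008; q = 0.0104 in the authors' test). A ratio to a value that close to 0 has little meaning as a size: the log2 fold was 7.72 with an SE of 2.28, and its 95% interval ran from 3.25 to 12.2. With 0.1 FPKM added to both values the log2 ratio of Dkk4 was 2.61, and with 1 FPKM added it was 0.60. The rise of Dkk4 did not pass at a q-value threshold of 0.01, and its q was 0.057 after the removal of a trend described below. Notum was higher with Dox, at 0.174 and 0.430 FPKM in the authors' deposited table (chromosome 11, 120507344 to 120523129), a ratio of 2.48. Its log2 fold of 1.31 was larger than that of Dkk1, but its SE of 0.62 was also larger, and it did not pass (q = 0.168 in the authors' test).

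Neither ubiquitin ligase gene passed, and they did so with different precision. Rnf43 stood at 0.630 and 0.866 FPKM in the authors' deposited table (chromosome 11, 87476223 to 87549041). It did not pass (log2 fold 0.46, SE 0.64, q = 0.79 in the authors' test). Its interval, from 0.58-fold to 3.27-fold, includes changes as large as those of Nkd1 and Dkk1. Znrf3, the closest relative of Rnf43, was at 1.89 and 1.98 FPKM in the authors' deposited table (chromosome 11, 5176326 to 5344850) and did not pass (log2 fold 0.07, SE 0.23, q = 0.97 in the authors' test). The interval of Znrf3, from 0.77-fold to 1.42-fold, does not reach the estimate of any of the 5 genes that rose.

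The surface receptors stood apart from each other. Tnfrsf19 was at 0.497 FPKM without Dox and 3.66 FPKM with it in the authors' deposited table (chromosome 14, 61582670 to 61665692). It rose 7.37-fold, and the interval of the fold was 5.32 to 10.2 (log2 fold 2.88, SE 0.24, authors' q listed as 0). This log2 fold was above that of 98.9% of all tested rows, and that of Axin2 above 98.5%. Lgr5 was the lowest member with Dox, at 0.125 and 0.164 FPKM in the authors' deposited table (chromosome 10, 114887366 to 115024836), and did not pass (log2 fold 0.39, SE 0.59, q = 0.82 in the authors' test). Its interval ran from 0.59-fold to 2.92-fold.

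**Figure D2:**
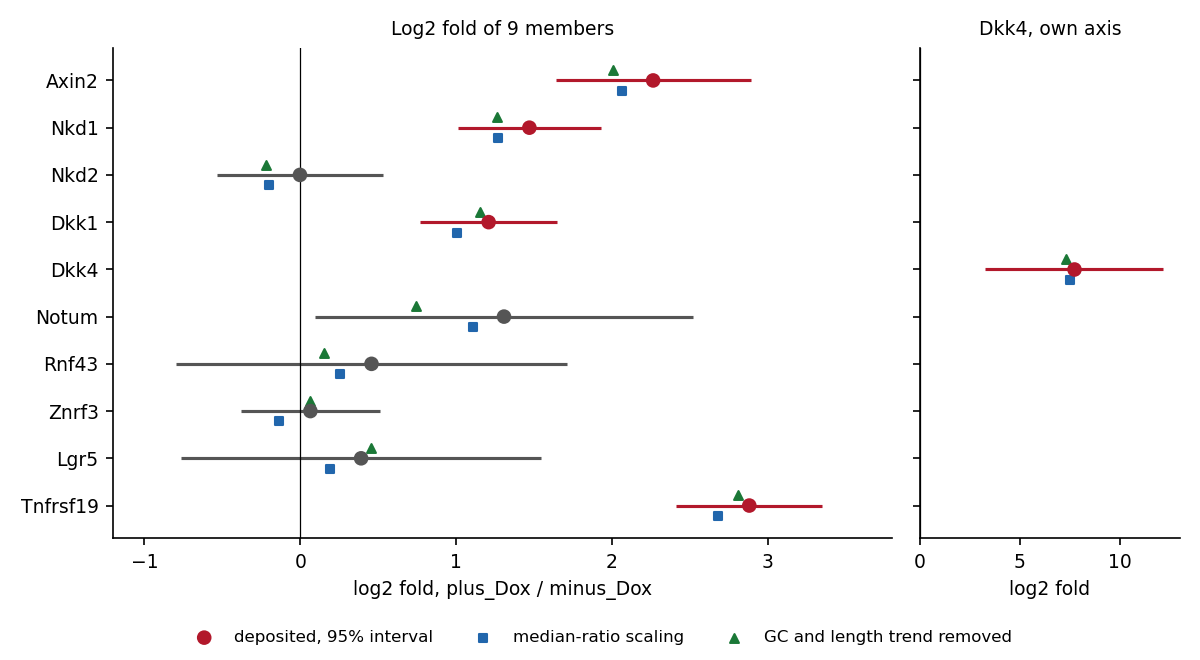
Log2 fold (plus_Dox over minus_Dox) of each gene with its 95% interval (circles and lines, red where the authors' q-value was at most 0.05, grey otherwise), with the log2 fold after median-ratio scaling (blue squares) and after removal of the trend on GC content and length (green triangles); Dkk4 has an axis of its own. Tnfrsf19 at 2.88 and Axin2 at 2.26 lie farthest from 0 on the shared axis, and the short intervals of Nkd2 and Znrf3 lie across 0.

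What could have been called differed from gene to gene. With the statistic needed for a call, 2.74 times the SE, a fold of 1.54 would have been called for Znrf3 and a fold of 1.67 for Nkd2. For Notum the fold needed was 3.24, for Rnf43 3.37 and for Lgr5 3.07. A rise of the size seen in Nkd1 or Dkk1 would thus have been called in Znrf3 and Nkd2, and was not detectable in Notum, Rnf43 and Lgr5 at their precision. Rows of the level of Notum (within 0.5 log2 units of it) had a median SE of 0.55, close to its own, and those of the level of Rnf43 had 0.43, so Rnf43 was measured less precisely than most rows like it. For Dkk4 the SE was above that of 87.2% of the rows of its level.

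**Figure D3:**
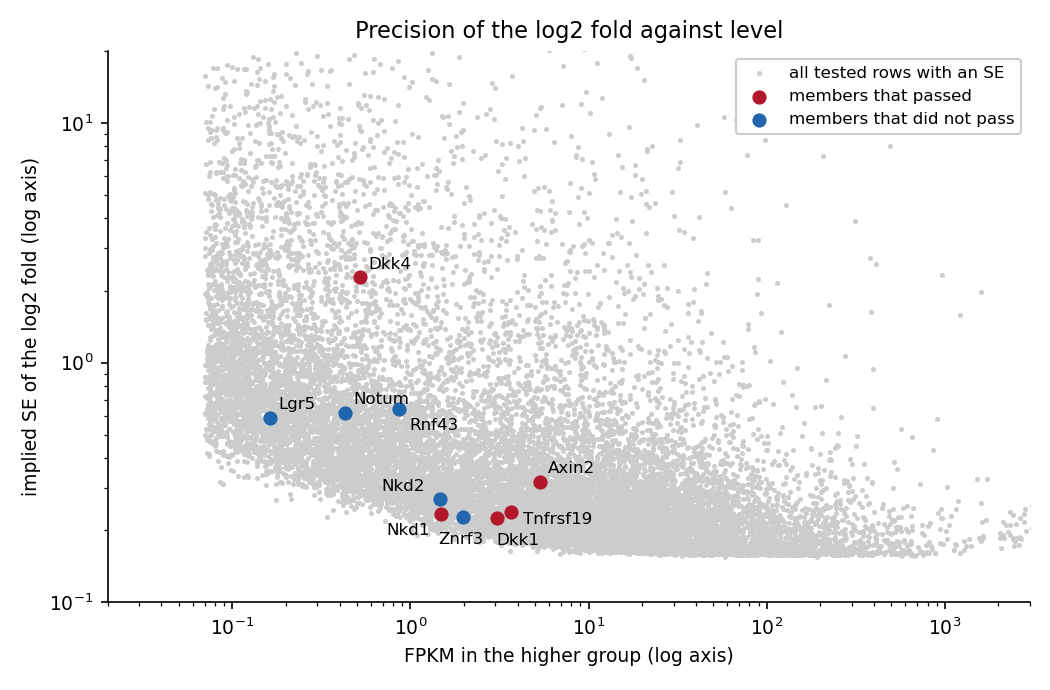
Implied SE of the log2 fold against the FPKM of the higher group (both log axes) for all tested rows with an SE that fall within the axes (grey) and for the 10 genes (red where they passed, blue where they did not). Notum, Rnf43 and Lgr5 lie at SE values of 0.59 to 0.64, while Znrf3 and Nkd2 lie at 0.23 and 0.27, beside Nkd1, Dkk1 and Tnfrsf19.

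Differences between the log2 folds of 2 members were taken for 9 pairs chosen with their values known, with 95% intervals that are not adjusted for the number of pairs and that take the errors of the 2 rows as independent. Nkd1 exceeded Nkd2 by 1.47 (interval 0.77 to 2.17). Tnfrsf19 exceeded Lgr5 by 2.49 (1.24 to 3.74). Axin2 exceeded Znrf3 by 2.20 (1.43 to 2.97) and Nkd2 by 2.27 (1.45 to 3.09). Axin2 exceeded Nkd1 by 0.79 (0.02 to 1.57), a difference whose interval includes 0 after removal of the trend described below (-0.03 to 1.52). Dkk1 minus Dkk4 was -6.51 (-10.99 to -2.02), with the limit on the Dkk4 ratio given above. For 3 pairs the interval of the deposited folds included 0. Tnfrsf19 was 0.62 above Axin2 (-0.16 to 1.40), and after removal of the trend this difference was 0.80 with an interval that no longer includes 0 (0.016 to 1.58). Rnf43 was 0.39 above Znrf3 (-0.94 to 1.72), and Dkk1 minus Notum was -0.10 (-1.39 to 1.19). A response of Rnf43 that is larger than that of Znrf3 by up to 1.72 log2 units therefore lies within the error.

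Fold changes in this table moved with the composition of the transcripts, which bears on the size of each value. The median log2 fold of the 12240 tested rows with at least 1 FPKM was 0.20. After this shift was subtracted, the same 5 of the 10 genes rose and 0 fell. Of the 17830 tested rows with an SE, 3.47% rose and 6.10% fell. A smooth trend of the log2 fold on transcript GC content and length was also removed. The trend was largest at Notum (59.5% GC, 0.56 log2 units) and between -0.07 and 0.40 at the others. After this step 4 of the 10 rose (Tnfrsf19 at 2.81, Axin2 at 2.01, Nkd1 at 1.26 and Dkk1 at 1.15) and 0 fell. The background was 1.29% higher and 0.900% lower, among the 16658 tested rows with an SE, GC content and length. Dkk4, at 7.32, had a q of 0.057. The log2 fold of Notum became 0.74, that of Rnf43 0.15, that of Znrf3 0.06, that of Lgr5 0.46 and that of Nkd2 -0.22, and these 5 did not pass.

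**Figure D4:**
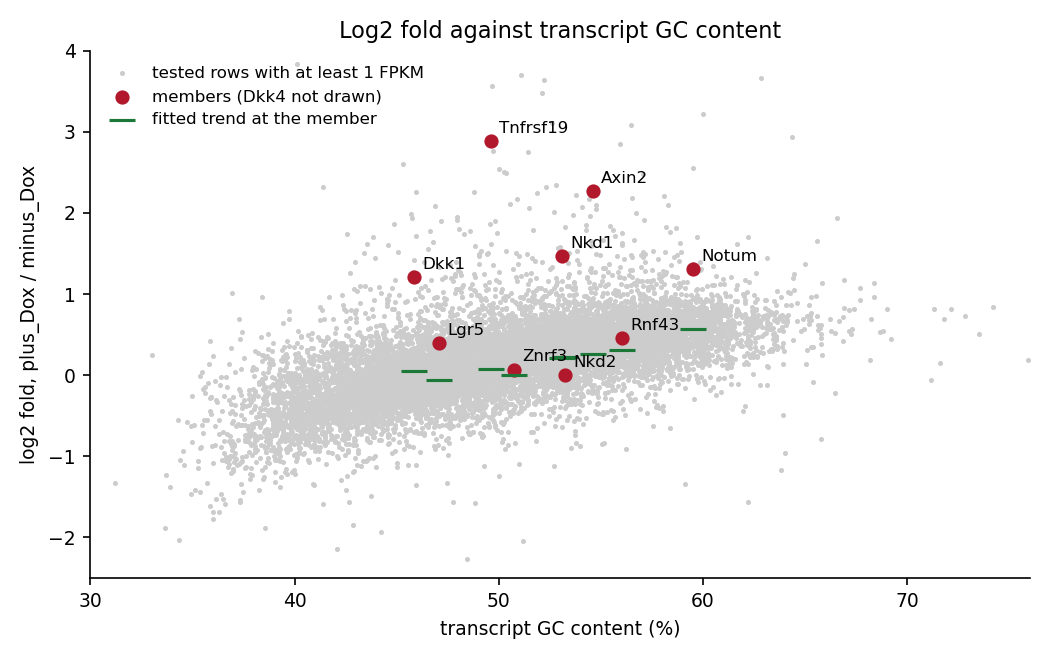
Log2 fold against transcript GC content in percent for tested rows with at least 1 FPKM that fall within the axes (grey), for 9 of the 10 genes (red; Dkk4 lies above the axis) and the fitted trend at each of these genes (green bars). Tnfrsf19, Axin2, Nkd1 and Dkk1 lie more than 1 log2 unit above the trend, and Nkd2, Rnf43 and Znrf3 lie within 0.3 units of it.

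In the genome, 4 of the genes lie on chromosome 11 (Axin2, Notum, Rnf43 and Znrf3) and 2 on chromosome 8 (Nkd1 and Dkk4), far apart in each case. Within 100 kb of the 10 genes the table holds 77 other rows, 55 of them tested, of which 11 rose and 0 fell. Over all tested rows 8.98% rose and 3.22% fell by the same rule. These neighbour calls were read without removal of the trend on GC content and length, which among the members was largest at Notum. Of these 11 rises, 9 lie beside Notum, where 17 neighbours were tested, among them Stra13 (41.9 and 75.0 FPKM in the authors' deposited table) and Rac3 (21.4 and 38.1 FPKM), named after their values were seen. The other 2 were Polb beside Dkk4 and Supt4h1 beside Rnf43. Polb lies 0.582 kb from Dkk4 and was far above it, at 25.5 and 35.8 FPKM in the authors' deposited table. Whether reads from Polb add to the row of Dkk4 was not tested. Around Axin2 (4 tested), Nkd1 (2), Dkk1 (3) and Tnfrsf19 (3), 0 neighbours rose or fell by the authors' test, and 2 of these 12 had an unadjusted p under 0.05 (1 beside Dkk1 and 1 beside Tnfrsf19). With 8.98% of all tested rows rising, a count of 0 among these 12 lies near the background. Several of the 12 were also low in the authors' deposited table, such as Snx20 beside Nkd1 (0.0805 and 0.128 FPKM) and Prkg1 beside Dkk1 (0.127 and 0.128 FPKM). The fold that these neighbours would have needed for a call was not computed, so a change of a member's size may have gone uncalled. Of the 77 rows, 8 overlap a member's span, which includes introns. How the authors assigned reads of overlapping genes is not described, so the values of these rows are uncertain. The overlapping row beside Axin2, Gm11670, was at 0.0226 and 0.154 FPKM in the authors' deposited table, far below Axin2.

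None of the tested family relatives and binding partners of these genes was called. Of 17 genes listed, 14 were tested, 0 rose and 0 fell by the authors' test at a q-value of 0.05, and 2 had an unadjusted p under 0.05 (Rspo1 and Rspo3). The share of rises over all tested rows was 8.98%, so a count of 0 among 14 lies near the background. Their median log2 fold was 0.41, which became 0.21 once the shift of all rows was subtracted and -0.0043 after removal of the trend. Kremen2, a receptor gene for the Dkk proteins, and Dvl2, a Dishevelled gene, both named after their values were seen, had higher values with Dox that could not have been called. Kremen2 was at 0.499 and 1.25 FPKM in the authors' deposited table, a ratio of 2.51 where a fold of 9.47 was needed for a call. Dvl2 was at 21.9 and 57.8 FPKM, a ratio of 2.64 with an SE of 10.6 log2 units. Axin1, the constitutive paralogue of Axin2, is listed at 18.2 and 25.3 FPKM in the authors' deposited table, but its test is marked as failed, so it carries no call. Dkk3 (log2 fold 0.49, SE 0.30) and Dkkl1 (0.54, SE 0.41), relatives of the Dkk genes, did not pass, and Dkk2 was not tested (0.0352 and 0.0503 FPKM in the authors' deposited table). The receptor gene Lgr4 was the most abundant of the Lgr genes, at 15.1 and 13.4 FPKM in the authors' deposited table (its log2 fold was -0.17, SE 0.22), far above Lgr5, and Lgr6 was near the level of Lgr5 (0.110 and 0.0648 FPKM). Of the R-spondin genes, whose products bind these receptors, the authors' deposited table gives Rspo1 at 7.91 and 12.3 FPKM (log2 fold 0.64, SE 0.29, q = 0.139) and Rspo3 at 0.483 and 0.765 FPKM (log2 fold 0.67, SE 0.29, q = 0.124). Rspo4 (0.35, SE 0.48) did not pass and Rspo2 was not tested. The co-receptor genes that the Dkk proteins bind, Lrp5 (16.4 and 20.6 FPKM in the authors' deposited table) and Lrp6 (7.48 and 5.53 FPKM), had log2 folds of 0.33 (SE 0.18) and -0.43 (SE 0.28).

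Other antagonists, most of them secreted, moved in both directions. Of 12 listed, 10 have a row and 9 were tested, of which 3 rose, 1 fell and 5 did not pass, with a median log2 fold of 0.18. Over all tested rows 8.98% rose and 3.22% fell. The rises were in Frzb, a secreted Frizzled-like protein that binds Wnt (0.264 and 0.986 FPKM in the authors' deposited table; its log2 fold was 1.90, SE 0.52), in Apcdd1, a membrane inhibitor (0.696 to 1.48 FPKM, log2 fold 1.09, SE 0.26), and in Sfrp5, a secreted Frizzled-related protein (4.42 to 7.19 FPKM, log2 fold 0.70, SE 0.20). Cer1, whose secreted product blocks Nodal and BMP ligands, fell. The authors' deposited table has it at 8.02 and 5.26 FPKM (log2 fold -0.61, SE 0.21, authors' q = 0.031). After median-ratio scaling, and again after removal of the trend, 2 rises and the fall passed, and Sfrp5 did not (q = 0.094 and 0.999996 from the authors' SE). Sfrp1 and Sfrp2, the most abundant of the antagonists at 17.1 and 18.7 FPKM without Dox in the authors' deposited table, did not pass.

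Of 25 other Wnt target genes, 23 were tested, 6 rose, 1 fell and 16 did not pass, with a median log2 fold of 0.44. Calls over all tested rows were 8.98% rises and 3.22% falls. Of the 23, 21 were higher with Dox, against 64.7% of all tested rows. The median became 0.24 after median-ratio scaling and 0.068 after removal of the trend, and 16 of the 23 were above 0 in each case. The rises were in the transcription factor genes Sp5 (log2 fold 4.59, SE 0.41), T (3.64, SE 0.42) and Sp8 (1.87, SE 0.34), the ligand genes Fgf8 (3.67, SE 0.23) and Wnt3 (3.11, SE 0.26), and the retinoic acid-degrading enzyme gene Cyp26a1 (0.45, SE 0.16, authors' q = 0.0488). Cyp26a1 did not pass after median-ratio scaling (log2 fold 0.25, q = 0.43) or after removal of the trend (0.011, q = 0.999996), where Bambi, a gene for a decoy receptor of BMP signalling, passed in its place (0.62, q = 0.042). The Frizzled gene Fzd7 fell (-0.54, SE 0.18). At an unadjusted p under 0.05 the authors' test gives 11 of the 23 as higher and 1 as lower. Myc (0.55, q = 0.076 in the authors' test) and Msx2 (0.71, q = 0.077), named after their values were seen, are among the 11 but did not pass. Targets known from other tissues were also among those that did not pass. Ccnd1, the cyclin gene, was at 31.3 and 35.7 FPKM in the authors' deposited table (0.19, SE 0.24), Cd44 was at 0.847 and 0.877 FPKM (0.05, SE 0.29) and Sox9 at 0.261 and 0.273 FPKM (0.06, SE 0.44). Tcf7, the sister of Lef1, was at 24.8 and 30.1 FPKM in the authors' deposited table, with an SE of 0.68 that leaves a change of the size of Nkd1's undetectable.

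**Figure D5:**
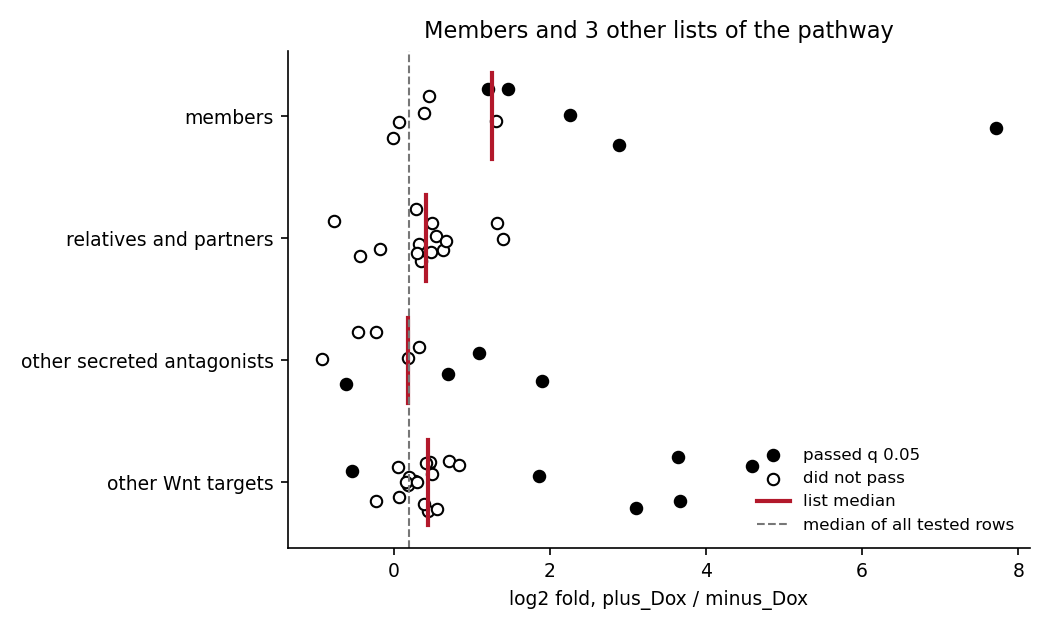
Log2 fold of every tested gene of the 10 members and of 3 other lists of the pathway (filled where the authors' q-value was at most 0.05, open otherwise; the vertical scatter within a list is only for display), with the median of each list (red) and of all tested rows (dashed line at 0.20). Filled points lie in the members, the other antagonists and the other targets, and the 14 relatives and partners are all open.

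Markers of cell types were read beside these values. All 7 primitive streak markers (T, Mixl1, Eomes, Fgf8, Evx1, Wnt3 and Gsc) rose, 0 of them at 0 in either group, and their summed level was 14.4 FPKM without Dox and 84.9 FPKM with it. Of these markers 3 (T, Fgf8 and Wnt3) also stand among the other Wnt targets above. Over all tested rows 8.98% rose. The 5 members that rose share this direction by the way they were picked, and the other 5 members did not pass. With 1 value per group, more cells of the primitive streak and more RNA per cell cannot be told apart. The part of the markers' rise in the result was not tested. Of the pluripotency and epiblast markers 1 of 8 tested rose (Nanog) and 1 fell (Sox2), and Pou5f1, the defining marker, was at 820 and 1510 FPKM in the authors' deposited table (q = 0.055 in the authors' test). Of the feeder fibroblast markers 0 of 7 tested rose or fell by the authors' test (2 were higher at an unadjusted p under 0.05), and their sums were 18.4 and 23.3 FPKM. Thy1 made up most of these sums, at 11.9 and 16.6 FPKM in the authors' deposited table, above the median of all tested rows (q = 0.055 in the authors' test), while the others lay at 2.12 FPKM or below and Lum at 0.0266 and 0.0132 FPKM. Visceral endoderm markers were present (sums of 147.7 and 170.7 FPKM), and 1 of 6 rose (Amn, log2 fold 0.69), a call that was lost after removal of the trend (0.021, q = 0.999996).

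The rows most like each of the 5 genes were found by distance in the 2 group levels (log2 FPKM) among single-gene rows with at least 1 FPKM, which measures level and fold only. Nearest to Axin2 was Gsc, a transcription factor gene of the organizer, at a distance of 0.42 log2 units (1.47 and 5.64 FPKM in the authors' deposited table), followed by Rps24-ps2 (0.47) and Pde2a (0.47). Nearest to Tnfrsf19 were Grrp1 (distance 0.16), AC159290.2 (0.22) and Mir433 (0.33), of which the last pair did not pass in the authors' test (q = 0.62 and 0.88). Nearest to Nkd1 were Gm9703 (0.07), which did not pass (q = 0.077), Sag (0.09) and Adamtsl5 (0.11), and nearest to Dkk1 were Plk5 (0.03), Fam25c (0.05) and Gm17150 (0.08). For Dkk4 the search says nothing of how common its pattern is, because Dkk4 itself is below 1 FPKM in both groups and rows of its level were left out. The rows it gave were Gm7601 at 4.13 log2 units, Ism2 at 4.36 and the Wnt target Sp5 at 4.86.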

How the data were processed

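RNA from 6 libraries was analysed, 3 per group, with groups taken from the sample titles. Per the labels' protocols, polyadenylated RNA was selected on oligo-dT beads from DNase-treated total RNA and copied with random primers. The tools in the submitters' processing notes are Cufflinks 2.0.2, Cuffdiff, TopHat2 2.0.8, Picard and Bowtie, with no role stated, and the build is mm9. The gene annotation used is not stated in these sources.

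Per the file headers, the deposited table holds 1 FPKM value per group for each of 36699 rows, a log2 fold, the statistic of the authors' own test (a score on no bounded scale), and its p-value and q-value. It has 0 columns of single libraries, so no model was fitted, no SD or counting interval was computed, and a depth per library is unknown. For tested rows with a finite fold, the p-value was checked to follow from the statistic by a two-sided normal test, and the q-value to be adjusted by Benjamini-Hochberg over all 18114 tested rows. Rows marked as not tested (18116), failed (368), too high in depth (98) or too low (3) carry no call.

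The call was a q-value of at most 0.05 with no minimum fold. The SE is the log2 fold divided by the statistic. Alternatives that change the fold or the rows tested had p and q recomputed from this SE or the deposited p. For 92.5% of tested rows GENCODE vM21 gave GC content and length, read from the longest basic transcript per symbol. The trend was a weighted least-squares fit of cubic splines with 6 knots each (scikit-learn 1.9.0), tested on simulated data. Members and lists were chosen with earlier results of these data known. Named were all members, the calls of each list up to 6, the direct paralogues, Rspo and Lrp genes, Lef1 and, for each called member, the 3 nearest rows. Other names were chosen after their values were seen. Rows of near-identical or overlapping genes are uncertain, since the authors' counting of shared reads is not described. A marker, Rhox5, and the genes Draxin and Trabd2b have no row under these symbols. The list of neural progenitor markers is not reported here.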

Additional observations from a re-analysis of the deposited data

How the results depend on the processing

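No paired analysis was possible because the table holds group values only, and for the same reason no replicate could be left out. Of the members, 5 rose, and the number was again 5 at a q-value threshold of 0.1, at a minimum of 2-fold, after median-ratio scaling and without rows that name several genes. It was 4 at a threshold of 0.01, when 1 FPKM was required in the higher group (6 members left) and after removal of the trend, and 1 with at least 5 FPKM, where Axin2 is the only member left. In each of these settings 0 members fell. The counts over all rows in the same settings, beside which these are to be read, follow in the next paragraph. The calls of Tnfrsf19, Axin2, Nkd1 and Dkk1 held wherever they were tested, and that of Dkk4 did not pass at a threshold of 0.01 (q = 0.0104) or after removal of the trend (q = 0.057), where the cause was not tested. Znrf3, which did not pass, went from a log2 fold of 0.07 to -0.13 after median-ratio scaling.

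Over all tested rows, 1626 rose and 584 fell. These counts were 901 and 307 at a threshold of 0.01, 2195 and 766 at 0.1, and 345 and 146 with at least 2-fold, all of 18114 rows. Fewer rows were tested in the other settings. The counts were 618 and 1087 of 17830 rows after median-ratio scaling, and 215 and 150 of 16658 after removal of the trend. With at least 1 FPKM they were 1715 and 589 of 12367 rows, and with at least 5 FPKM 1496 and 402 of 8530. Without rows that name several genes they were 1597 and 575 of 17766. Median-ratio scaling subtracts a shift of 0.20 and by construction moves rises to falls. For the others the cause was not tested, apart from the stricter thresholds themselves. In the 3 pathway lists together, 9 rose and 2 fell. The falls were 0 at a threshold of 0.01 and 0 with at least 2-fold, and the rises were 4 when 5 FPKM were required, where 20 genes were left. A pseudocount of 1 FPKM moved the log2 ratio by more than its SE for Tnfrsf19 (1.64), Axin2 (1.58), Nkd1 (0.69), Dkk1 (0.80), Dkk4 (0.60) and Notum (0.29), since it understates changes of low genes. Among the members that did not pass, changes under 3-fold were not detectable in Notum, Rnf43 and Lgr5. The fold needed for a call was larger still for Dkk4, at 75.7.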
